A study of Mus musculus with 18 samples.

Results

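Cells that had been taken from a fibroblast to a pluripotent state by retroviral reprogramming and a final 2-inhibitor treatment were compared with the fibroblasts at the start of that path, over 19937 genes. The comparison used 6 of the 18 arrays of the series, 3 of the 2i converted cells and 3 of the fibroblasts, and the members were taken by their sample titles. The fibroblasts were low passage primary mouse embryonic fibroblasts (MEFs) of the CD1 strain, grown in serum without feeder cells. The 2i converted cells came from EOS3F-24, a partially reprogrammed induced pluripotent stem (iPS) line made from CD1 MEFs with pMX retroviruses for Oct4, Klf4 and Sox2. They had been treated with a MEK inhibitor at 2 µM and a GSK inhibitor at 12 µM in ES medium with LIF. The other arrays, 3 a group, were of EOS3F-24 before conversion, of the fully reprogrammed lines EOS3F-28 and EOS3F-29, and of J1 embryonic stem (ES) cells. Per the labels, the iPS clones and ES cells grew in LIF on feeders whose division had been arrested, and puromycin at 1 µg/ml was kept on the 3 EOS3F lines. Whether puromycin, or the feeders, were present during 2i conversion is not given in the sources used here, nor is whether feeder cells were removed before RNA was made, nor the time in 2i. Reprogramming, the inhibitors, the medium and LIF all differed between the groups compared and cannot be told apart, and whether feeders differed too is not known here. The converted cells trace to a single partial line, and the labels do not say if each array of a group had a culture of its own. The p-values therefore refer to the spread among the deposited arrays, which may be technical.

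As background, a fibroblast is a mesenchymal cell that secretes collagen and other matrix, pulls on it through actin stress fibres and keeps its place along the body axis in its Hox gene activity. Naive pluripotent mouse stem cells instead form compact, E-cadherin-bound colonies, divide with a short gap phase, rely on a circuit around Oct4 (Pou5f1), Sox2, Nanog and Esrrb, and open parts of the germline programme. The "2i" cocktail blocks MEK, which drives differentiation through ERK, and GSK3, which restrains Wnt signalling, and LIF acts through STAT3. Values are log2 array intensities after RMA, so a difference of 1 is a doubling. Differences are 2i converted minus MEF with the standard error of the fit (n = 3 arrays a group), and a gene was called at a limma adjusted p under 0.05.

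The array medians of the 18 arrays lay between 3.92 and 4.11, and replicates of either compared group correlated at 0.981 to 0.992 over all genes. Of 10 fibroblast markers, 9 were called lower in the 2i converted cells, and Pdgfra was the exception, at a difference of -1.15 ± 0.50 (adjusted p = 0.086). All 10 pluripotent markers were called higher, by 2.93 to 7.37. Replicate 1 of each iPS and ES group, the converted cells included, read higher for matrix genes than its replicates 2 and 3: the mean over 30 matrix glycoprotein genes was 7.08, 6.21 and 6.43 in the 2i converted cells, against 8.58, 8.41 and 8.82 in the MEFs. The part of this in the results below was not tested beyond leaving that array out.

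Across the genome 7467 genes differed between fibroblasts and converted cells (37.5%), 3906 higher after conversion (19.6%) and 3561 lower (17.9%). With a change of at least 2-fold there were 1013 higher (5.08%) and 1248 lower (6.26%). The 3 converted arrays did not overlap the 3 MEF arrays for 9620 genes (48.3%), so a list of which about 48.3% of members are separated is at the background. Without converted replicate 1 the calls numbered 7114, and 2519 of those reached 2-fold. The split of higher and lower calls depended on the scaling: centring each array on 13 housekeeping genes gave 1701 higher and 9535 lower calls and moved the median difference of all genes from 0.03 to -0.34. This scaling lowers every gene alike, so lists whose members moved little gain falls and lose rises under it, as their counts given with it show. Of those 13 genes, Hprt and Tfrc differed by 1.91 ± 0.15 and 2.31 ± 0.38. In whole-culture RNA, fewer cells of a type and less RNA per cell cannot be told apart.

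**Figure D1:**
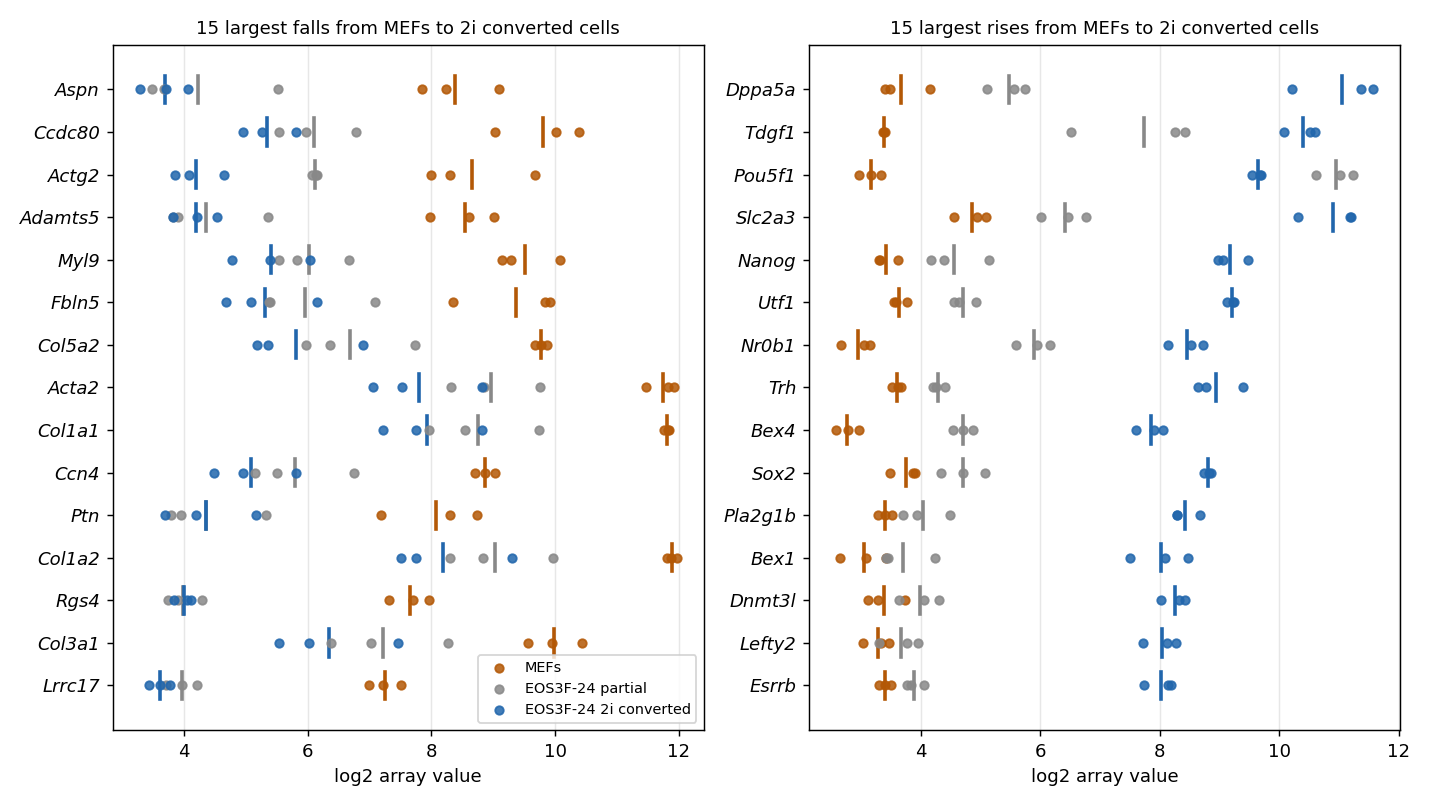
Log2 array values (horizontal axis) of the 15 genes with the largest called falls (left) and rises (right) between MEFs and 2i converted cells; each point is an array, vertical ticks are group means, and the partial line is drawn in grey. The grey points lie near the blue ones for most genes that fell, and nearer the MEF points for most genes that rose. For Pou5f1, Tdgf1 and, by less, Nr0b1 they lie nearer the converted cells.

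The contractile apparatus had the lowest median of the lists. Of 24 measured genes for stress-fibre and smooth-muscle actin machinery, 21 fell (87.5%) and 0 rose (limma; 0 also at an unadjusted p under 0.05), with a median difference of -2.62 where the median over all genes was 0.03. Acta2, the smooth muscle alpha-actin of activated fibroblasts, read 11.92, 11.47 and 11.83 on the MEF arrays and 8.81, 7.05 and 7.52 on the 2i converted arrays. The groups were far apart, a 15.4-fold lower level (difference -3.95 ± 0.55, adjusted p = 1.9e-05), and converted replicate 1 was the highest of its group. Actg2, the enteric smooth muscle actin, read 9.67, 7.99 and 8.30 on the MEF arrays and 4.64, 3.85 and 4.07 on the 2i converted arrays, 22.1-fold lower (-4.47 ± 0.37). Myl9, a regulatory light chain of non-muscle and smooth muscle myosin, fell 17.2-fold (-4.11 ± 0.52) and Tagln, the actin-binding transgelin, 11.8-fold (-3.56 ± 0.50). Calponins Cnn1 and Cnn2 differed by -3.29 and -3.27, vinculin (Vcl), which ties actin to adhesions, by -2.78, and filamin A (Flna) by -2.79. The serum response factor gene itself, Srf, fell less (-0.94 ± 0.16), and so did its coactivator Mrtfa (-0.72 ± 0.15). Des, Mylk and Myocd did not pass the test (-0.44, -0.27 and -0.13). In the partial line the list median was -2.01 below MEFs. From there to the converted cells 4 members were called lower (13.0% of all genes) and 0 higher. With the replicate number as a block in the fit these counts were 11 and 1, while over all 19937 genes 3033 were lower and 2193 higher. Actg2 fell by 1.93 in that step (limma adjusted p = 0.00094).

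Many contractile genes carry CArG boxes, the binding sequence of serum response factor, close to their starts, so the RefSeq promoters (GRCm38.p6) of these members were read. The box was taken as CC, 6 bases of A or T, and GG, on either strand, in the 250 bases before the start. It was found at 5 of the 21 contractile genes with a promoter in the table (23.8%), Cnn2, Fhl2, Myl9, Srf and Vcl, against 227 of 15613 measured genes (1.45%). All 5 were called lower, as were 14 of the 16 without the box, so presence of the letters did not separate genes that fell from others. The stretches below are shown because they put the box of 4 of these falling genes in sight, in capitals, each 80 bases long and written along the gene's own strand.
Cnn2 (chr10:79988509-79988588, plus strand): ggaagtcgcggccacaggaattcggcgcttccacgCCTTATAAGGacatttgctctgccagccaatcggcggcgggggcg
Myl9 (chr2:156775268-156775347, plus strand): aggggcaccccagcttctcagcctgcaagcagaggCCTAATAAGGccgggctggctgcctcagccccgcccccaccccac
Srf (chr17:46556200-46556279, minus strand): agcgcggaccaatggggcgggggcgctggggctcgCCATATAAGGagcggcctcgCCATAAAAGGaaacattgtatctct
Vcl (chr14:20929148-20929227, plus strand): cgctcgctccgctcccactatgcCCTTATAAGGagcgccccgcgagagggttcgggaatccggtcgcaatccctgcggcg
The Srf stretch holds the box more than once. These are letter matches and not measured binding sites, and the choice of 9 motifs and 8 lists was made after the expression values had been seen.

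Collagens fell almost as a class. Of 20 genes, 18 fell (90%) and 0 rose (limma; 0 also at an unadjusted p under 0.05), the median difference being -2.53. Col1a1, a chain of the main fibrillar collagen, read 11.84, 11.76 and 11.83 on the MEF arrays and 8.81, 7.22 and 7.74 on the 2i converted arrays. The groups did not overlap, and the converted arrays spread more widely than the MEF arrays, with replicate 1 the highest (14.8-fold lower on average; -3.89 ± 0.51, adjusted p = 1.2e-05). Col1a2, the other chain of the same fibril, and Col3a1 fell by a like amount (-3.70 ± 0.53 and -3.65 ± 0.58). Col5a2, a minor fibrillar chain, read 9.77, 9.68 and 9.87 on the MEF arrays and 6.89, 5.17 and 5.35 on the 2i converted arrays (-3.97 ± 0.58). The basement membrane chain Col4a1 fell too (-2.55 ± 0.24). Col18a1 and Col27a1 were the members that did not pass the test (0.18 and -0.02). The largest share of this fall was already present in the partial line: the median over the list was -2.24 for partial minus MEF, with 19 of 20 called lower (10.0% of all genes), and -0.24 for converted minus partial. These steps share the arrays of the partial line. The split of their calls over all genes moved with the scaling: 2722 higher and 1995 lower for partial minus MEF became 2181 and 2550 after cyclic loess and 1440 and 3137 with housekeeping centring, and 1866 higher and 2590 lower for converted minus partial became 1027 and 4374 with housekeeping centring.

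Among 30 other matrix glycoproteins and their binders, 26 fell (86.7%; median -2.23). Asporin (Aspn), a small leucine-rich proteoglycan, gave the largest fall of any named gene: it read 8.23, 7.84 and 9.09 on the MEF arrays and 4.07, 3.28 and 3.70 on the 2i converted arrays, with no overlap, a 26-fold lower level (-4.70 ± 0.49, adjusted p = 1e-06). Ccdc80, a secreted matrix protein, read 10.01, 9.03 and 10.39 on the MEF arrays and 5.81, 4.95 and 5.25 on the 2i converted arrays (-4.47 ± 0.42), and Fbln5, which organises elastic fibres, fell 16.8-fold (-4.07 ± 0.56). Fibronectin (Fn1), periostin (Postn) and tenascin C (Tnc) differed by -1.85, -2.97 and -1.61. Decorin (Dcn), a collagen-binding proteoglycan, was the only member that rose. It read 7.84, 7.61 and 8.11 on the MEF arrays and 10.00, 8.76 and 9.26 on the 2i converted arrays, all converted arrays above all MEF arrays (1.48 ± 0.40, adjusted p = 0.0071). It read 9.83, 9.06 and 8.93 in the partial line and 9.64, 8.37 and 9.24 in J1 ES cells, so these groups were above the MEFs in decorin while below them in Col1a1.

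Matrix-cutting enzymes and their inhibitors split. All 16 measured members passed the test, 13 lower (81.2%) and 3 higher (18.8%). Adamts5, which cleaves aggrecan and versican, read 8.60, 7.98 and 9.02 on the MEF arrays and 4.54, 3.81 and 4.22 on the 2i converted arrays and fell 20.4-fold (-4.35 ± 0.41). Adamts1 and Adamts12, of the same family, also fell (-3.51 ± 0.40 and -3.49 ± 0.33). Timp3, a matrix-bound inhibitor of metalloproteases, read 8.64, 8.33 and 9.09 in MEFs, 8.53, 9.34 and 8.90 in the partial line and 6.45, 5.31 and 5.82 after conversion (-2.83 ± 0.34), and the difference of the partial line from the MEFs did not pass the test (0.23 ± 0.34). The members that rose were the secreted proteases Mmp3, Mmp10 and Mmp13, which lie together on chromosome 9. Mmp3, stromelysin, read 4.16, 5.45 and 5.38 on the MEF arrays and 9.61, 8.12 and 8.44 on the 2i converted arrays, a 13.2-fold higher level (3.72 ± 0.56, adjusted p = 4.4e-05); Mmp13, a collagenase, rose by 2.35 ± 0.52, and Mmp10 by 2.10 ± 0.23. On the J1 arrays Mmp3 read 9.80, 7.74 and 8.92, and converted cells differed from J1 by -0.10 ± 0.56.

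**Figure D2:**
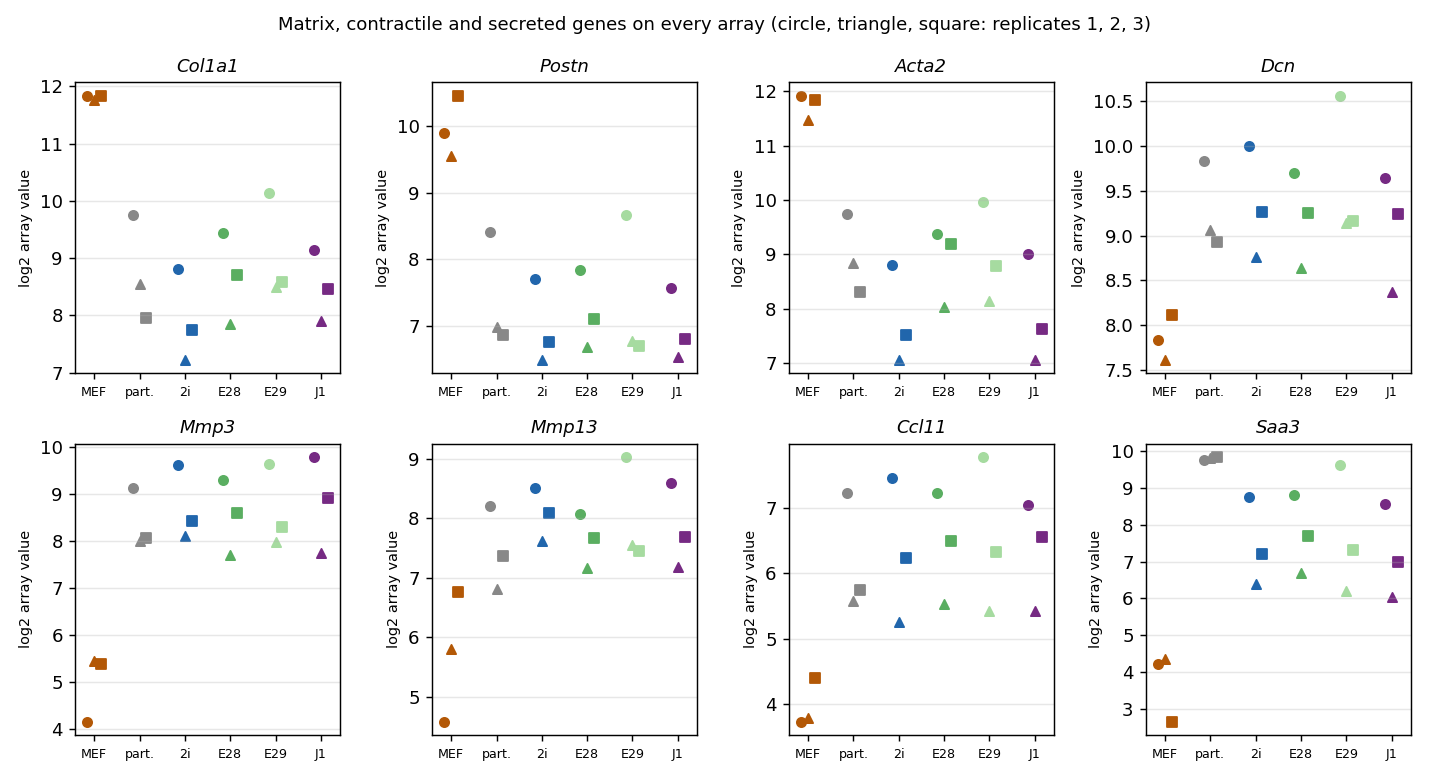
Log2 array values (vertical axes) of 8 matrix, contractile and secreted genes on all 18 arrays, by group (MEF; part., the partial line; 2i, the converted cells; E28 and E29, the full lines; J1, ES cells) and replicate (circle, triangle and square for replicates 1, 2 and 3). Col1a1, Postn and Acta2 are highest in MEFs, while Dcn, Mmp3, Mmp13, Ccl11 and Saa3 are lowest there, and the circle is the highest point of most iPS and ES groups.

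The surface and adhesion genes of fibroblasts followed the matrix. Of 21, 18 fell (85.7%) and 1 rose, median -2.30. Thy1, a surface marker used to sort fibroblasts out of reprogramming cultures, read 8.47, 8.17 and 8.45 on the MEF arrays and 6.63, 5.59 and 5.95 on the 2i converted arrays (4.94-fold lower; -2.30 ± 0.35, adjusted p = 5.6e-05). The PDGF receptor Pdgfrb fell 9.31-fold (-3.22 ± 0.41), the caveolar coat gene Cav1 8.96-fold (-3.16 ± 0.35), the collagen receptor Ddr2 7.82-fold (-2.97 ± 0.35) and the receptor kinase Axl 7.48-fold (-2.90 ± 0.31). The 2 receptors Axl and Ddr2 were called lower again from the partial line to the converted cells (-1.32 ± 0.31 and -1.15 ± 0.35), whereas for Cav1 and Pdgfrb that step did not pass (-0.56 ± 0.35 and -0.32 ± 0.41). Same-numbered converted and partial arrays deviated together, and with the number as a block Cav1 passed too (limma adjusted p = 0.036) while Pdgfrb did not (0.43). Icam1, an adhesion molecule for leukocytes, rose against the rest of the list (4.14, 4.67 and 4.85 on the MEF arrays and 6.03, 6.84 and 6.31 on the 2i converted arrays; 1.84 ± 0.26).

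Transcription factors and TGF-beta ligands that hold the mesenchymal state gave 23 falls among 35 (65.7%; median -1.10) and 0 rises (limma; 0 at an unadjusted p under 0.05, and 1 without converted replicate 1). Tgfb3, a TGF-beta ligand, read 8.60, 7.82 and 7.65 on the MEF arrays and 4.75, 4.30 and 4.29 on the 2i converted arrays and fell 11.9-fold (-3.58 ± 0.28). Snai2, a repressor of E-cadherin, read 7.48, 7.72 and 7.58 on the MEF arrays and 6.11, 4.91 and 5.13 on the 2i converted arrays (-2.21 ± 0.36), and Snai1, Zeb1 and Zeb2, which act on the same target, differed by -1.65, -1.27 and -2.16. Twist1, another such factor, and the limb mesenchyme factor Prrx1 also fell (-1.32 ± 0.28 and -1.81 ± 0.38). Tbx15 and Runx1 fell (-2.57 ± 0.38 and -2.31 ± 0.27), both with a called step from partial to converted cells (-1.63 ± 0.38 and -1.27 ± 0.27). Tcf21 and Meox1 were among the members that did not pass (0.22 and 0.05).

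Of 37 Hox genes, which record position along the body axis, 16 fell (43.2%) and 0 rose (limma; 0 also at an unadjusted p under 0.05), with a median of -0.28; with housekeeping centring 31 fell. Only 2 of the falls reached 2-fold, Hoxc8 and Hoxc10. Hoxc8 read 5.81, 5.78 and 6.17 on the MEF arrays and 4.64, 4.34 and 4.31 on the 2i converted arrays (-1.49 ± 0.20, adjusted p = 1.5e-05), and Hoxc10 read 4.62, 4.86 and 4.94 on the MEF arrays and 3.69, 3.47 and 3.74 on the 2i converted arrays (-1.17 ± 0.16). Their neighbours Hoxc9, Hoxc5 and Hoxc6 also fell (-0.94, -0.90 and -0.88). The partial line still read 5.93, 6.24 and 5.47 for Hoxc8, a difference from MEFs of -0.04 ± 0.20. Over the list, 18 members were lower in converted than in partial cells (13.0% of all genes). Between MEFs and partial cells 4 members were lower in the latter (10.0% of all genes) and 4 higher (13.7% of all genes), with a median of 0.09.

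Among the genes that rose, those of the pluripotency circuit led. Of 22 core members, 21 rose (95.5%) and 0 fell (limma; 0 also at an unadjusted p under 0.05), with a median difference of 3.50. Dppa5a, an RNA-binding protein of pluripotent cells, gave the largest rise of any gene named by rank. It read 3.40, 4.15 and 3.49 on the MEF arrays and 10.22, 11.37 and 11.57 on the 2i converted arrays, a 166-fold higher level (7.37 ± 0.28, adjusted p = 5.3e-12). Tdgf1 (Cripto), the co-receptor for Nodal, read 3.38, 3.38 and 3.40 on the MEF arrays and 10.08, 10.60 and 10.52 on the 2i converted arrays (129-fold; 7.01 ± 0.35), and Nanog, a homeobox factor of the naive circuit, read 3.31, 3.62 and 3.33 on the MEF arrays and 9.06, 8.97 and 9.48 on the 2i converted arrays (53.8-fold; 5.75 ± 0.23). For each of these genes the lowest converted array lay far above the highest MEF array.

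The members differed in when on the path they rose. Nanog read 4.17, 5.14 and 4.39 in the partial line, Sox2 4.34, 4.71 and 5.08 and Utf1, a chromatin-bound co-regulator, 4.64, 4.94 and 4.56; each was called higher than in MEFs there (13.7% of all genes were), by 1.15, 0.96 and 1.07, and rose by a further 4.60, 4.10 and 4.49 on conversion (9.36% of all genes rose). Zfp42 (Rex1), a marker of the naive state, read 3.47, 4.07 and 3.31 in the partial line, overlapping the MEF arrays, and 8.18, 7.80 and 8.08 after conversion. Pou5f1 went another way: 3.35, 3.17 and 2.98 in MEFs, 10.61, 11.02 and 11.24 in the partial line and 9.54, 9.68 and 9.70 after conversion, so that it fell by 1.32 on the log2 scale in the last step while ending 89-fold above the MEFs (6.48 ± 0.16). Klf4, also introduced by virus, read 5.84, 5.36 and 6.01 on the MEF arrays and 6.69, 6.71 and 6.80 on the 2i converted arrays (0.99 ± 0.16), with 7.12, 7.09 and 6.61 in the partial line. Whether the probes of Pou5f1, Sox2 and Klf4 also read viral transcripts was not tested. Myc, not among the introduced factors, read 6.78, 7.28 and 6.38 in MEFs, 8.08, 8.78 and 8.74 in the partial line and 5.96, 4.17 and 4.59 after conversion, a fall of the end point below the start (-1.91 ± 0.41, adjusted p = 0.0011). Its paralogue Mycn, added here after its values had been seen, rose (3.73 ± 0.26).

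**Figure D3:**
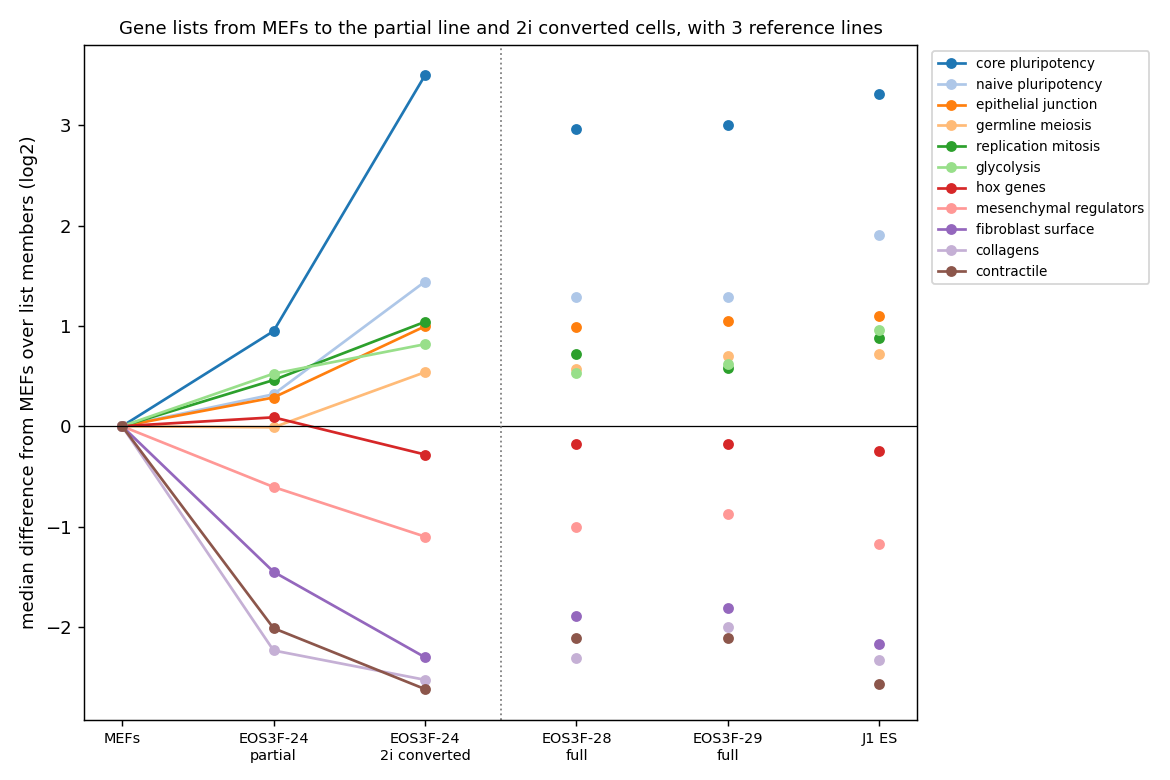
Median difference from MEFs (log2, vertical axis) over the members of 11 gene lists, with lines joining MEFs, the partial line and the 2i converted cells, and unjoined points for the full lines and J1 ES cells; all points share the MEF arrays. Collagen and contractile lists lie at -2.24 and -2.01 in the partial line and at -2.53 and -2.62 in the converted cells. Core pluripotency rises from 0.95 to 3.50 in the last step.

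Genes tied to the naive state rose with the core: 18 of 20 (90%), median 1.44. Esrrb, an orphan nuclear receptor downstream of GSK3 inhibition, read 3.40, 3.31 and 3.51 on the MEF arrays and 7.74, 8.15 and 8.18 on the 2i converted arrays (24.5-fold; 4.61 ± 0.17, adjusted p = 3.7e-12). The X-linked nuclear receptor Nr0b1 (Dax1) read 3.15, 3.06 and 2.67 on the MEF arrays and 8.72, 8.14 and 8.52 on the 2i converted arrays (45.2-fold; 5.50 ± 0.19), and Tfcp2l1, a target of LIF and STAT3, rose 12-fold (3.59 ± 0.16). Tcl1, a co-activator of AKT, read 4.01, 3.64 and 3.69 in MEFs, 3.79, 3.94 and 3.90 in the partial line and 7.69, 8.13 and 8.22 after conversion (4.24 ± 0.18), so its called step was from the partial line (4.14 ± 0.18). Dppa3 (Stella) rose 2.18-fold (1.12 ± 0.21). Stat3 was the member that fell (7.66, 7.74 and 8.09 on the MEF arrays and 6.57, 6.34 and 6.62 on the 2i converted arrays; -1.32 ± 0.15).

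Genes of primed, post-implantation epiblast gave 10 rises among 17 (58.8%) and a median of 0.35 that turned to -0.02 with housekeeping centring. The rises and falls numbered 6 and 4 with housekeeping centring. The members that rose most were the Nodal inhibitors Lefty2, which read 3.47, 3.04 and 3.34 on the MEF arrays and 8.13, 7.71 and 8.27 on the 2i converted arrays (26.9-fold; 4.75 ± 0.27), and Lefty1, which read 3.47, 2.98 and 3.49 on the MEF arrays and 6.76, 6.91 and 7.22 on the 2i converted arrays (3.65 ± 0.27). Otx2, an early epiblast homeobox factor, rose 8.39-fold (3.07 ± 0.23), and Nodal itself by 1.95 ± 0.16. Fgf5, the usual marker of the primed state, and the gastrulation genes Gsc, Mixl1 and Cer1 did not pass the test, at -0.15, -0.03, 0.27 and -0.27. Follistatin (Fst), which binds activin, fell (-1.72 ± 0.46).

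Outside those lists, the largest rises included Trh, the precursor of thyrotropin-releasing hormone, which read 3.68, 3.53 and 3.63 on the MEF arrays and 9.40, 8.63 and 8.78 on the 2i converted arrays (40.1-fold; 5.33 ± 0.24). Bex1 and Bex4, X-linked genes of one family, rose 31.4-fold and 33.9-fold (4.97 ± 0.24 and 5.08 ± 0.14), and the secreted phospholipase Pla2g1b rose 32.3-fold (5.01 ± 0.16). Of these, only Bex4 had moved more than 1 log2 unit in the partial line (1.93 ± 0.14). The largest falls outside the lists were of Ccn4, a secreted Wnt-induced matrix protein (-3.79 ± 0.46), Ptn, the growth factor pleiotrophin (-3.72 ± 0.53), Rgs4, a brake on G-protein signalling (-3.66 ± 0.17), and Lrrc17, a secreted leucine-rich protein (-3.64 ± 0.16). Rgs4 read 4.29, 3.73 and 3.91 in the partial line, against 3.83, 4.05 and 4.11 after conversion, so those groups overlapped.

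Cell-cell junction genes rose as mesenchymal regulators fell. Of 30 members, 20 rose (66.7%) and 0 fell (limma; 0 also at an unadjusted p under 0.05), median 1.00. Cdh1, E-cadherin, read 4.15, 4.61 and 4.14 in MEFs, 7.05, 7.19 and 7.15 in the partial line and 7.32, 7.66 and 7.87 after conversion (9.97-fold; 3.32 ± 0.19, adjusted p = 8.4e-10), with a called step from MEFs to the partial line (2.83 ± 0.19) and none after it (0.49 ± 0.19), though with the replicate number as a block the later step passed too (limma adjusted p = 0.012). Epcam, the epithelial adhesion molecule, read 3.41, 4.14 and 2.99 in MEFs, 3.62, 4.42 and 4.53 in the partial line and 7.66, 7.85 and 7.83 after conversion (19.3-fold; 4.27 ± 0.28), and its step from MEFs to the partial line did not pass (0.68 ± 0.28). The protease inhibitor Spint2 rose 9.22-fold (3.20 ± 0.25) and the tight junction claudin Cldn6 6.04-fold (2.59 ± 0.25). Splicing and transcription factors of epithelia, Esrp1, Grhl2 and Grhl3, rose by 1.86, 1.25 and 1.54. Keratins did not follow: of 17, Krt8 rose (0.71 ± 0.24), Krt7 fell (-0.69 ± 0.22) and the remaining 15 did not pass. Both calls were lost without converted replicate 3, that of Krt7 also without MEF replicate 3 and that of Krt8 with housekeeping centring. Krt13 read 3.73, 3.51 and 3.47 in MEFs, 8.05, 8.82 and 9.53 in the partial line and 3.67, 3.66 and 3.59 after conversion, so the converted and MEF arrays overlapped (0.07 ± 0.24). Slc38a5, an amino acid transporter, took the same kind of detour, reading 3.80, 3.81 and 3.45 in MEFs, 10.47, 10.48 and 10.79 in the partial line and 4.93, 4.77 and 5.18 after conversion. It was chosen after its values were seen and ended above the MEFs (1.27 ± 0.21).

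**Figure D4:**
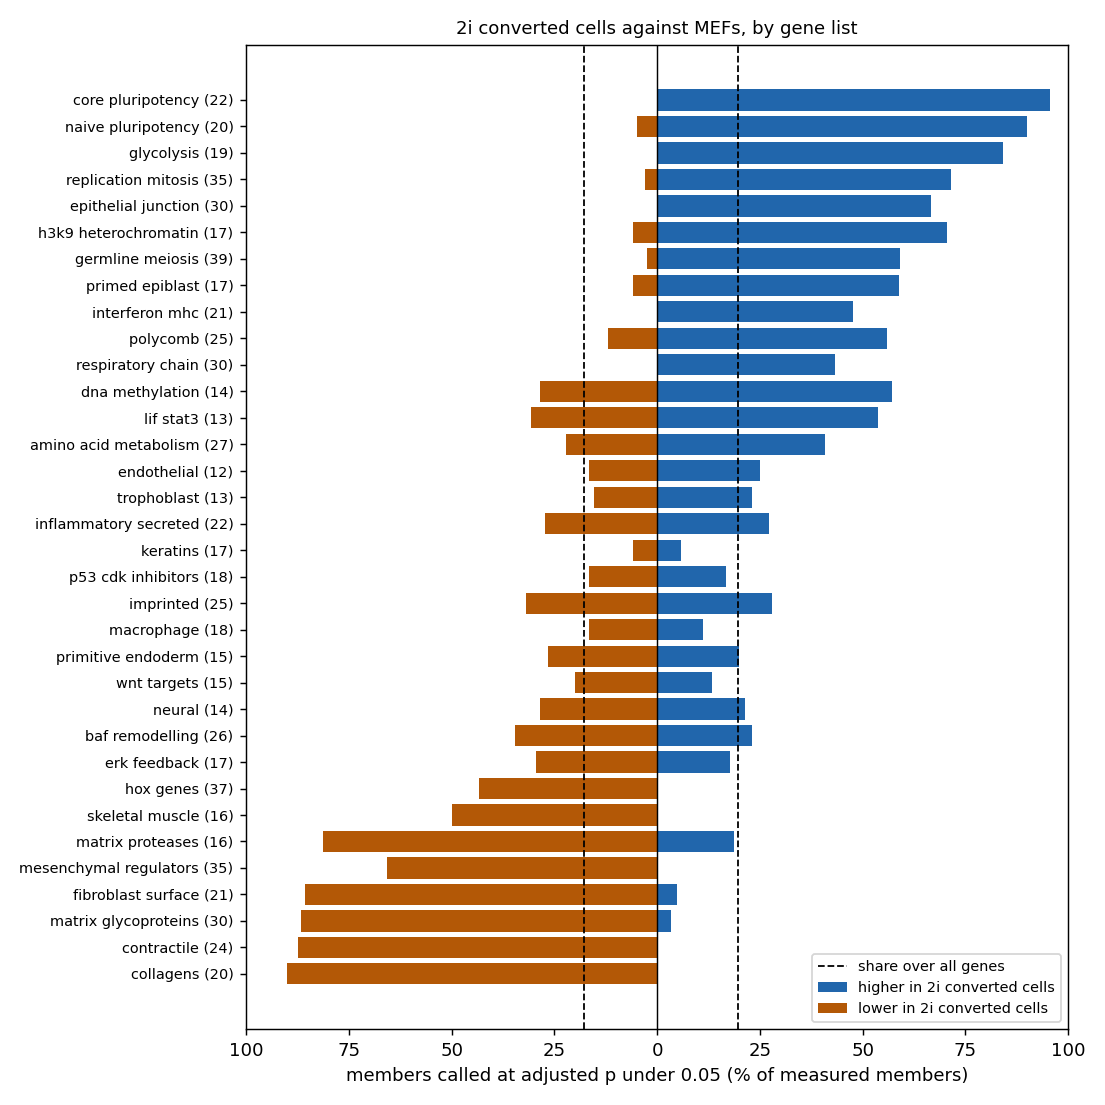
Share of measured members (number in brackets) of 34 gene lists called higher (blue, to the right) or lower (brown, to the left) in 2i converted cells than in MEFs, in percent; dashed lines mark the shares over all 19937 genes, 19.6% higher and 17.9% lower. Core and naive pluripotency, glycolysis, replication and H3K9 lists extend farthest right and collagen, contractile and matrix lists farthest left.

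The pathways that the medium acts on did not move as blocks. Of 13 genes of LIF signalling, 7 rose (53.8%) and 4 fell (30.8%), against 19.6% and 17.9% over all genes. With housekeeping centring 5 rose and 5 fell. The targets Pim1, Pim3 and Socs3 rose (1.44 ± 0.27, 1.16 ± 0.12 and 0.98 ± 0.15). A second, dimmer probe set of Socs3 differed by 0.09 and did not pass (limma adjusted p = 0.65). The shared receptor Il6st (gp130) read 8.77, 8.66 and 9.37 on the MEF arrays and 6.91, 6.25 and 6.74 on the 2i converted arrays and fell 4.92-fold (-2.30 ± 0.26). The kinases Jak1 and Jak2 fell too (-1.49 ± 0.16 and -1.15 ± 0.23). The LIF receptor gene itself, Lifr, rose slightly (0.44 ± 0.12). Of 17 ERK targets and feedback genes, 3 rose, 5 fell and 9 did not pass, against 19.6% and 17.9% over all genes. Etv5, Etv1 and Etv4, ETS factors downstream of FGF and ERK, rose by 2.49 ± 0.12, 1.02 ± 0.15 and 0.82 ± 0.13, and their partial-line differences from MEFs were 2.60, 1.36 and 0.77. On a second, dimmer probe set Etv5 rose less, by 1.53. Dusp6, the phosphatase that dephosphorylates ERK, read 6.71, 6.24 and 6.23 on the MEF arrays and 7.02, 6.34 and 6.90 on the 2i converted arrays, and the arrays overlapped (0.36 ± 0.25, adjusted p = 0.3). Egr1 fell (-0.74 ± 0.20), as did Spred1 and Phlda1 (-0.63 and -0.68), which both lost the call without converted replicate 2 or 3, or without MEF replicate 1. Dusp14, another phosphatase gene of the list, was called lower than in MEFs too. Its step from partial to converted cells was -3.35 (limma adjusted p = 1.7e-11). Of 15 Wnt targets and Tcf/Lef factors, 2 rose and 3 fell (0 and 6 with housekeeping centring), with a median of 0.05 that turned to -0.32 with housekeeping centring. Axin2, the common readout of beta-catenin, read 3.71, 3.81 and 3.96 on the MEF arrays and 4.16, 4.08 and 3.98 on the 2i converted arrays and did not pass (0.25 ± 0.11, adjusted p = 0.087). The members that rose were Lef1 (0.62 ± 0.16; no call with housekeeping centring) and Notum, a secreted Wnt inhibitor (0.50 ± 0.18, adjusted p = 0.043). The call of Notum was lost after cyclic loess, with housekeeping centring, and without converted replicate 1 or 2 or any MEF replicate, and Tcf7l2 and the Wnt-amplifying receptor Lgr5 fell (-1.12 ± 0.11 and -1.87 ± 0.32).

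Chromatin regulators changed in makeup. Dnmt3l, the catalytically inactive partner of the de novo DNA methyltransferases, read 3.29, 3.73 and 3.13 on the MEF arrays and 8.42, 8.32 and 8.02 on the 2i converted arrays (29.2-fold; 4.87 ± 0.18, adjusted p = 4.6e-12). Dnmt3b and Dnmt3a rose by 2.50 ± 0.16 and 1.34 ± 0.15, and Uhrf1, which brings the maintenance enzyme to DNA, by 1.44 ± 0.22. The 5-methylcytosine oxidases took different directions: Tet1 read 3.69, 4.12 and 3.98 on the MEF arrays and 7.70, 7.69 and 8.05 on the 2i converted arrays (14.8-fold; 3.89 ± 0.19), Tet2 rose (1.44 ± 0.19) and Tet3 fell (-0.47 ± 0.14), the last not without converted replicate 3 or MEF replicate 2. A second, dimmer probe set of Tet3 differed by -0.10 and did not pass (limma adjusted p = 0.61). The methyl-CpG readers Mbd2 and Mbd1 fell (-1.44 ± 0.20 and -1.15 ± 0.14). In all, 8 of 14 genes of this group rose (57.1%) and 4 fell (28.6%), against 19.6% and 17.9% over all genes.

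Polycomb genes gave 14 rises among 25 (56%), with 3 falls (1 without converted replicate 1); the counts were 10 and 7 with housekeeping centring. Jarid2 and Mtf2, accessory subunits of the H3K27 methyltransferase complex, rose 7.25-fold and 5.55-fold (2.86 ± 0.15 and 2.47 ± 0.19), and its core subunit Ezh2 by 1.46. Eed rose by 2.06 ± 0.15 on its brighter probe set, while a second, dimmer probe set differed by -0.09. Within the other Polycomb complex, Phc1 rose 6.03-fold (2.59 ± 0.20) while its paralogues Phc2 and Phc3 fell (-0.34 ± 0.11 and -0.73 ± 0.22), and Cbx7 rose (2.05 ± 0.15). The calls of Phc2 and Phc3 were lost without converted replicate 1. Bmi1, which restrains the Cdkn2a locus, read 6.79, 7.35 and 6.80 on the MEF arrays and 5.56, 4.88 and 5.13 on the 2i converted arrays and fell 3.46-fold (-1.79 ± 0.24). Of 17 genes of H3K9 methylation and heterochromatin, 12 rose (70.6%) and 1 fell, and the counts were 8 and 3 with housekeeping centring. Zfp57, which guards imprints, rose by 2.46 ± 0.19 and the remodeller Hells by 2.31 ± 0.21. The demethylase Kdm4c rose by 1.87 ± 0.29 and the corepressor Trim28 by 1.47 ± 0.17. BAF remodelling subunits split into 6 rises (23.1%) and 9 falls (34.6%) of 26, against 19.6% and 17.9% over all genes. With housekeeping centring the counts were 2 and 15. Actl6a and Smarcd1 rose most (1.42 ± 0.17 and 1.20 ± 0.13). Smarcc1 rose (0.60 ± 0.14, though not with housekeeping centring) and its paralogue Smarcc2 fell (-1.14 ± 0.18); the ATPase Smarca2 fell (-0.67 ± 0.20) while the alternative ATPase Smarca4 did not pass (0.05 ± 0.10).

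Germline and meiosis genes, silent in most somatic cells, gave 23 rises among 39 (59%) and 1 fall, Tdrkh, with a median of 0.54. With housekeeping centring the counts were 14 and 5. Syce2, a central element of the synaptonemal complex that holds paired meiotic chromosomes, read 4.61, 4.85 and 4.49 in MEFs, 4.20, 4.25 and 3.75 in the partial line and 7.20, 8.02 and 7.97 after conversion (8.45-fold; 3.08 ± 0.26, adjusted p = 1e-07). Tdrd12, a Tudor protein of the piRNA pathway, rose 6.79-fold (2.76 ± 0.25), the meiotic recombinase Dmc1 4.17-fold (2.06 ± 0.27) and the axial protein gene Sycp3 3.72-fold (1.89 ± 0.41). Stag3, a meiotic cohesin, and Ddx4 (Vasa), an RNA helicase of germ cells, differed by 1.66 ± 0.33 and 1.07 ± 0.27. Stra8, Spo11 and Nanos3 did not pass (0.00, -0.06 and 0.34), so the list rose in part. From MEFs to the partial line 1 member rose (13.7% of all genes), and from partial to converted cells 19 did (9.36% of all genes).

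Germline promoters are known to carry the E-box bound by non-canonical Polycomb complexes in stem cells, the palindrome CACGTG. It was found in the 250 bases before the start in 14 of the 33 germline genes with a RefSeq promoter (42.4%), against 1266 of 15613 measured genes (8.11%). Of the 14, 10 were called higher and 0 lower; of the 19 without it, 10 were higher and 1 lower, and the median differences were 0.92 and 0.46, with no test made. The stretches below are 80 bases each, with the palindrome in capitals, and are shown for 4 genes that rose.
Syce2 (chr8:84872133-84872212, plus strand): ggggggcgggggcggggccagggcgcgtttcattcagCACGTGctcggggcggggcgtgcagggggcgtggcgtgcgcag
Sycp3 (chr10:88459486-88459565, plus strand): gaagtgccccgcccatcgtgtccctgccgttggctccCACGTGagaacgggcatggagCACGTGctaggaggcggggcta
Stag3 (chr5:138280302-138280381, plus strand): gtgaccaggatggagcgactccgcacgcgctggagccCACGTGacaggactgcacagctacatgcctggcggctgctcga
Ddx4 (chr13:112652311-112652390, minus strand): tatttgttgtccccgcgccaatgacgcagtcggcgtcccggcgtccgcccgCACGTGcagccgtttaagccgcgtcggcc
In the Sycp3 stretch the palindrome occurs more than once. For the same reason as above these are matches of letters only.

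Imprinted genes, expressed from a single parental copy, moved both ways. Of 25, 7 rose (28%) and 8 fell (32%), against 19.6% and 17.9% over all genes (median -0.31). With housekeeping centring the counts were 4 and 14. The growth inhibitor Grb10 read 9.16, 9.18 and 9.15 on the MEF arrays and 6.14, 5.58 and 5.76 on the 2i converted arrays and fell 10.1-fold (-3.34 ± 0.18, adjusted p = 2.9e-10), and the fetal growth factor Igf2 read 7.96, 8.76 and 7.35 on the MEF arrays and 5.22, 4.48 and 4.68 on the 2i converted arrays and fell 9.36-fold (-3.23 ± 0.28). Its clearing receptor Igf2r fell as well (-1.36 ± 0.23). Phlda2, which limits placental growth, rose 9.02-fold (3.17 ± 0.19), and the retrotransposon-derived Peg10 read 5.98, 6.29 and 4.96 in MEFs, 4.70, 4.40 and 4.24 in the partial line and 8.30, 8.38 and 8.49 after conversion (2.65 ± 0.25). Meg3, the non-coding RNA of the Dlk1 domain, stayed well above the floor, at 7.65, 7.81 and 7.63 in converted cells against 8.30, 8.04 and 8.14 in MEFs (-0.46 ± 0.15); that call was lost without converted replicate 1 or 3, or without MEF replicate 1.

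Replication and mitosis genes gave 25 rises of 35 (71.4%, median 1.04), or 18 rises and 3 falls with housekeeping centring. The largest were of genes of DNA synthesis and its entry: Mybl2, a transcription factor of the S and G2 phases, read 5.32, 5.95 and 5.01 on the MEF arrays and 8.72, 8.96 and 9.04 on the 2i converted arrays (11.2-fold; 3.48 ± 0.20), and cyclin E1 (Ccne1) rose 5.02-fold (2.33 ± 0.20). The licensing factor Cdt1 and the helicase subunit Mcm6 rose by 2.35 ± 0.25 and 1.99 ± 0.21, and Mcm2, Mcm3, Mcm5 and Mcm7 by 1.70, 1.60, 1.88 and 1.73. Genes of mitosis were mixed. The checkpoint kinase genes Bub1b and Bub1 rose (1.18 ± 0.24 and 1.24 ± 0.36), the latter not without converted replicate 2 or MEF replicate 3, and so did the kinase Aurka and its relative Aurkb, Birc5 and Mad2l1 (by 0.64, 0.61, 0.61 and 0.54), all of which lost the call with housekeeping centring and Aurkb and Mad2l1 also without any of several single arrays. Cdk1, Plk1, Ccnb2, Ccna2, Cdc20, Top2a and Mki67 did not pass (0.00, 0.24, 0.27, 0.41, 0.38, 0.60 and -0.54), and Foxm1, an activator of mitotic genes, fell (-0.55 ± 0.17), with overlap between the arrays and no call without converted or MEF replicate 2. Among 18 genes of the p53 response and CDK inhibitors, 3 rose and 3 fell (16.7% each), near the 19.6% and 17.9% over all genes. With housekeeping centring the counts were 2 and 10. Cdkn2a, the Ink4a/Arf gene that limits reprogramming, read 4.92, 4.06 and 5.28 on the MEF arrays and 5.13, 4.64 and 4.80 on the 2i converted arrays, with overlap (0.10 ± 0.22, adjusted p = 0.77), and Cdkn2c fell (-1.25 ± 0.15).

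Of 19 genes of glucose uptake and glycolysis, 16 rose (84.2%) and 0 fell (limma, 0 also at an unadjusted p under 0.05), median 0.82. With housekeeping centring 11 rose and 2 fell. The leading member was Slc2a3, the high-affinity glucose transporter GLUT3, which read 4.56, 4.94 and 5.10 on the MEF arrays and 10.31, 11.19 and 11.19 on the 2i converted arrays (65.5-fold; 6.03 ± 0.38, adjusted p = 2.7e-09). Pdk1, which holds pyruvate back from the mitochondrion, rose 4.42-fold (2.15 ± 0.28), and the lactate transporter Slc16a1 3.81-fold (1.93 ± 0.18). Among the enzymes the called rises ran from 0.56 (Pkm) to 2.63 (Aldoc): the aldolases Aldoc and Aldoa rose by 2.63 ± 0.67 and 0.65 ± 0.17, the lactate dehydrogenase genes Ldhb and Ldha by 1.69 ± 0.24 and 0.70 ± 0.16, and the hexokinase Hk2 by 1.20 ± 0.21, while Hk1 and Eno2 did not pass (0.00 and 0.77). Respiratory chain genes gave 13 rises of 30 (43.3%) with a median of 0.27, which turned to -0.09 with housekeeping centring. Under that centring 5 rose and 8 fell. Of 27 genes of amino acid and folate metabolism and transport, 11 rose (40.7%) and 6 fell (22.2%), against 19.6% and 17.9% over all genes. The median was 0.08, and with housekeeping centring the counts were 10 and 11. The glycine decarboxylase Gldc read 3.39, 3.63 and 3.45 on the MEF arrays and 6.62, 7.06 and 6.99 on the 2i converted arrays (10.6-fold; 3.40 ± 0.18), its partner Amt rose 7.41-fold (2.89 ± 0.16) and Shmt1 4.07-fold (2.02 ± 0.14), whereas its mitochondrial counterpart Shmt2 did not pass (-0.42 ± 0.20). Phgdh, the first step of serine synthesis, the glycine transporter Slc6a9 and the cystine transporter Slc7a11 fell (-1.42 ± 0.19, -1.79 ± 0.15 and -1.81 ± 0.35).

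The array also holds probe sets at microRNA loci, which read the host or precursor transcript rather than the mature RNA and lay close to the floor of the scale. Of 296 such genes, 25 were called higher (8.45%) and 42 lower (14.2%), less than the 19.6% and 17.9% over all genes. Those named here were chosen after their values had been seen. The mature sequences below (RefSeq, GRCm38.p6) are shown because the genes that rose share seeds, bases 2 to 8, here in capitals, across chromosomes 14, X, 5 and 3. The first lines are of the Mir17 cluster on chromosome 14.
mmu-miR-17-5p (chr14:115043684-115043706, plus strand): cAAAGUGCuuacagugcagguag
mmu-miR-18a-5p (chr14:115043867-115043889, plus strand): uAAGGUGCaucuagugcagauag
mmu-miR-19a-3p (chr14:115044048-115044070, plus strand): uGUGCAAAucuaugcaaaacuga
mmu-miR-20a-5p (chr14:115044183-115044205, plus strand): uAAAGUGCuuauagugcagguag
mmu-miR-19b-3p (chr14:115044358-115044380, plus strand): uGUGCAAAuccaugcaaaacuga
The next are from the Mir106a cluster on chromosome X and from Mir25 and Mir92b on chromosomes 5 and 3.
mmu-miR-106a-5p (chrX:52742541-52742563, minus strand): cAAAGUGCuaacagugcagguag
mmu-miR-363-3p (chrX:52741697-52741718, minus strand): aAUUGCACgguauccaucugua
mmu-miR-25-3p (chr5:138165332-138165353, minus strand): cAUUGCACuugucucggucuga
mmu-miR-92b-3p (chr3:89227126-89227147, minus strand): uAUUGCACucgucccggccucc
The last are of loci that fell.
mmu-miR-29a-3p (chr6:31062673-31062694, minus strand): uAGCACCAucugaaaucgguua
mmu-miR-125b-5p (chr9:41581940-41581961, plus strand): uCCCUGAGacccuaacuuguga
mmu-miR-181b-5p (chr1:137966650-137966673, plus strand): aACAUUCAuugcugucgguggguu
In the first cluster, the host transcript Mir17hg read 3.37, 4.01 and 3.53 on the MEF arrays and 4.99, 4.67 and 5.31 on the 2i converted arrays (1.35 ± 0.22, adjusted p = 9e-05). Mir18, Mir20a, Mir19a, Mir19b-1 and Mir17 rose by 1.38, 1.16, 1.15, 1.00 and 0.75. On the X chromosome Mir106a, with the same AAAGUGC seed as miR-17 and miR-20a, rose by 0.73 ± 0.13, and Mir363, with the AUUGCAC seed, read 2.86, 2.69 and 2.89 on the MEF arrays and 4.06, 3.67 and 3.50 on the 2i converted arrays (0.93 ± 0.15). Mir25 and Mir92b, which share that seed, rose by 0.60 ± 0.13 and 0.58 ± 0.13. Mir93 and Mir20b carry the AAAGUGC seed and did not pass (0.16 and 0.12), so a shared seed did not fix a shared change. The calls of Mir17, Mir106a, Mir25 and Mir92b were lost with housekeeping centring. Mir29a, known as a repressor of collagen messages, read 3.18, 3.43 and 3.34 on the MEF arrays and 2.38, 2.37 and 2.47 on the 2i converted arrays (-0.91 ± 0.11), and Mir125b-1 and Mir181b-1 fell (-0.91 ± 0.19 and -0.81 ± 0.12). Mir145a, a microRNA of smooth muscle, gave the only 2-fold fall (-1.70 ± 0.21). Mir302b, of the stem cell cluster with seed AAGUGCU, read 2.46, 2.23 and 2.50 in MEFs and 3.64, 2.26 and 2.51 in converted cells and did not pass (0.41 ± 0.43).

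Genes that mark inflammation and interferon exposure were checked beside the markers of other cell types. Of 21 interferon-induced and MHC class I genes, 10 rose (47.6%) and 0 fell (limma; 1 at an unadjusted p under 0.05), against 19.6% and 17.9% over all genes. In the partial line 12 were already higher than in MEFs and 0 lower (13.7% and 10.0% of all genes). From there to the converted cells 2 rose and 3 fell (9.36% and 13.0% of all genes). With housekeeping centring the counts against MEFs were 7 and 2. Without converted replicate 1 they were 6 and 1. Bst2, tetherin, which holds virus particles at the cell surface, read 5.30, 4.91 and 5.59 on the MEF arrays and 7.69, 7.69 and 7.83 on the 2i converted arrays and kept its call without that array (2.47 ± 0.24). Ifit3 read 3.39, 3.74 and 3.78 on the MEF arrays and 6.25, 4.86 and 5.11 on the 2i converted arrays and lost its call without it or without MEF replicate 1 (1.77 ± 0.57). Secreted inflammatory genes gave 6 rises and 6 falls of 22 (27.3% each), against 19.6% and 17.9% over all genes. With housekeeping centring the counts were 3 and 7. The acute-phase gene Saa3 read 4.23, 4.35 and 2.66 on the MEF arrays and 8.75, 6.38 and 7.20 on the 2i converted arrays (3.70 ± 0.79) and the eosinophil chemokine Ccl11 3.74, 3.80 and 4.40 on the MEF arrays and 7.45, 5.25 and 6.23 on the 2i converted arrays (2.33 ± 0.62), with converted replicate 1 highest in both. Saa3 read 9.74, 9.82 and 9.83 in the partial line and 8.79, 6.69 and 7.69 in EOS3F-28. Cxcl12, a homing chemokine of stroma, fell (-2.06 ± 0.35). Mean levels over this list were 6.11, 5.03 and 5.38 in converted cells and 5.02, 5.30 and 5.20 in MEFs, so the groups overlapped.

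Of 18 macrophage markers, 2 rose and 3 fell (2 and 16 with housekeeping centring). Laptm5 and Cd68, both lysosomal proteins, rose (2.11 ± 0.24 and 1.71 ± 0.46), while Lyz2, lysozyme, read 5.02, 4.55 and 6.22 on the MEF arrays and 3.40, 3.07 and 2.88 on the 2i converted arrays and fell (-2.15 ± 0.32); Ptprc and Csf1r did not pass (-0.31 and -0.24). The mean over the list was 3.77, 3.73 and 4.35 on the MEF arrays and 3.78, 3.73 and 3.76 on the converted arrays. Skeletal muscle genes gave 8 falls of 16 and 0 rises (limma; 1 at an unadjusted p under 0.05). The cardiac actin Actc1 read 7.45, 8.82 and 5.79 on the MEF arrays and 4.86, 4.49 and 4.73 on the 2i converted arrays, with MEF arrays that differed more among themselves than the converted arrays did (-2.66 ± 0.44), and Acta1 and Myog fell (-2.26 ± 0.22 and -0.74 ± 0.28). Endothelial genes gave 3 rises and 2 falls of 12 (0 and 5 with housekeeping centring), with Emcn falling most (-1.32 ± 0.22). Among 15 genes of primitive endoderm, 3 rose and 4 fell (1 and 7 with housekeeping centring). Lama1, Gata4 and Sox7 rose (0.91 ± 0.14, 0.46 ± 0.13 and 0.36 ± 0.12), the call of Sox7 being lost under most alternatives that leave out an array and that of Gata4 with housekeeping centring. The laminin and collagen genes Lamb1 and Col4a1 fell (-1.13 ± 0.28 and -2.55 ± 0.24), as did Dab2 and Cubn (-1.92 ± 0.21 and -0.46 ± 0.10); Gata6, Sox17 and Afp did not pass (-0.27, 0.16 and -0.05). A second, dimmer probe set of Dab2 differed by -0.06 and did not pass (limma adjusted p = 0.69). Of 13 trophoblast genes, 3 rose and 2 fell (2 and 6 with housekeeping centring). Tfap2c, Ascl2 and Eomes rose (2.04 ± 0.20, 1.21 ± 0.26 and 0.49 ± 0.11; Eomes not with housekeeping centring), Krt7 and Gata2 fell (-0.69 and -0.47 ± 0.16, the latter not without converted replicate 1 or 2 or MEF replicate 1 or 3), and Cdx2, Elf5 and Hand1 did not pass (0.16, 0.04 and -0.03). Of 14 neural genes, 3 rose and 4 fell (1 and 6 with housekeeping centring). The microtubule regulator Stmn2 read 4.68, 4.86 and 5.71 on the MEF arrays and 8.11, 8.02 and 8.16 on the 2i converted arrays and rose 8.08-fold (3.01 ± 0.18), Nes and Ncam1 fell (-2.09 ± 0.19 and -2.18 ± 0.19). Sox1, Olig2 and Dcx did not pass (0.32, 0.12 and -0.13). Over all genes 19.6% rose and 17.9% fell, and these marker lists lay between 11.1% and 25% higher and between 15.4% and 28.6% lower, skeletal muscle aside.

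Sex-linked genes differed between the compared groups. The Y-linked Eif2s3y read 5.80, 6.03 and 6.11 on the MEF arrays and 3.98, 3.37 and 3.59 on the 2i converted arrays (-2.33 ± 0.18, adjusted p = 4.1e-08), and Uty and Kdm5d were lower as well (-1.36 ± 0.19 and -1.29 ± 0.14). Between the partial line and the converted cells Eif2s3y, Uty and Kdm5d did not pass (-0.38, -0.13 and -0.22). Of the 4 measured sex-linked genes, 3 were already lower in the partial line than in MEFs (10.0% of all genes were). On the J1 arrays Eif2s3y read 6.37, 6.49 and 6.22. Xist, the RNA that coats the inactive X chromosome, read 6.89, 7.13 and 6.70 in MEFs, 6.82, 7.15 and 7.16 in the partial line and 5.21, 4.74 and 4.71 after conversion (-2.02 ± 0.23), so that its fall lay in the last step (-2.16 ± 0.23). The sex of the embryos behind the MEFs is not given in the sources used here.

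Genes were then grouped by chromosome, 20 in all, over 3930 genes whose mean over all arrays reached 6, of which 33.5% rose and 29.7% fell (median 0.05). Chromosomes 8, 12 and X are described because earlier results of these data had pointed to them. On chromosome 8 the median difference was 0.32 over 213 genes, against 0.04 over the rest, with 103 higher (48.4%) and 50 lower (23.5%). An array's chromosome score, the median deviation of its genes from the mean of all arrays less the autosomal median, was -0.07, -0.15 and -0.12 in MEFs and 0.14, 0.18 and 0.14 in converted cells for chromosome 8. These did not overlap, as on 7 of the 20 chromosomes. A test of 3 arrays against 3 cannot give an exact two-sided permutation p below 0.1, which is the value reached. The partial line scored -0.08, -0.07 and -0.09, so its arrays lay with the MEFs, and J1 cells scored 0.26, 0.26 and 0.31. On chromosome 12 the median was 0.23 over 136 genes, with scores of 0.22, 0.26 and 0.16 in converted cells and 0.00, 0.02 and 0.06 in MEFs (exact permutation p = 0.1), while J1 cells scored -0.15, -0.18 and -0.15. Genes of chromosome 12 that rose include the proteasome subunits Psma3, Psma6 and Psmc1 (1.27 ± 0.18, 1.25 ± 0.19 and 1.17 ± 0.17) and the NAD-synthesis enzyme Nampt (2.84 ± 0.32). On the X chromosome the median was 0.12 over 127 genes and the scores overlapped (exact permutation p = 0.2); without MEF replicate 2 that median was 0.20. Housekeeping centring turned the raw medians of all 3 chromosomes negative, to -0.04, -0.14 and -0.24, since it lowered every gene. DNA copy number was not measured.

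**Figure D5:**
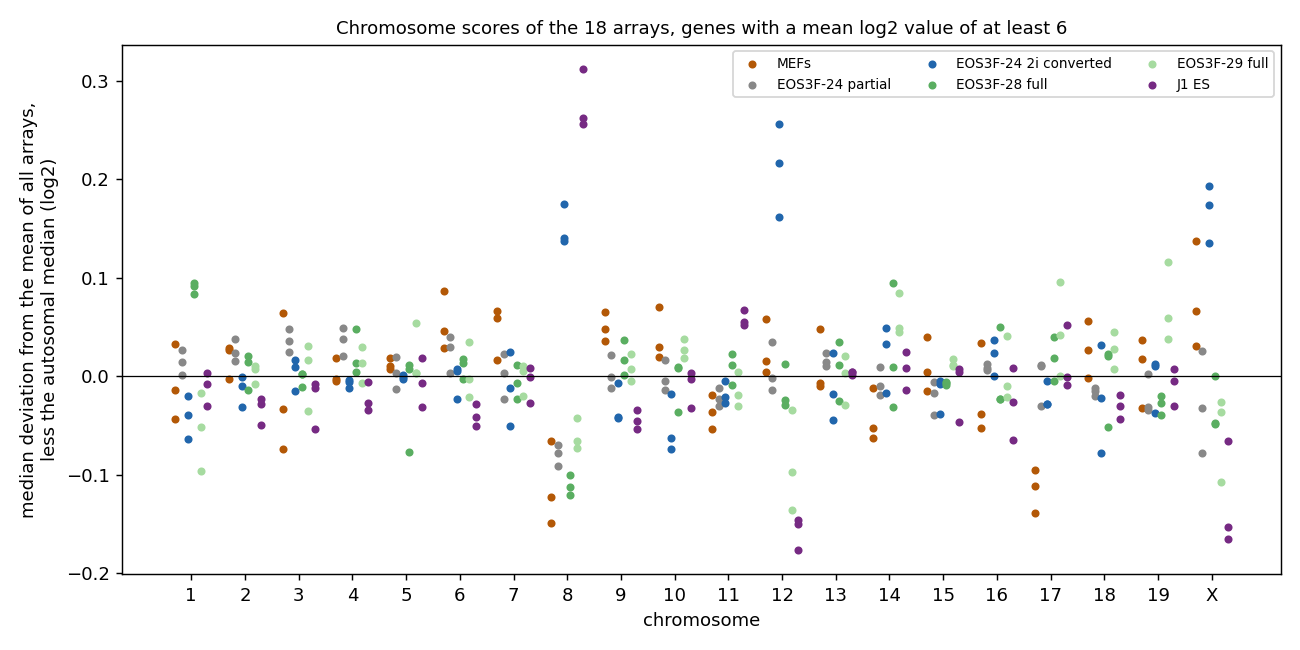
Chromosome scores (vertical axis, log2) of the 18 arrays for each chromosome, over genes whose mean log2 value reached 6; each point is an array, coloured by group. Converted arrays stand apart from the MEF and partial-line arrays on chromosomes 8 and 12, at 0.14 to 0.18 and at 0.16 to 0.26.

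The converted cells were last set against the full lines and J1 ES cells; all these comparisons share the converted arrays. Against the 2 full lines 1029 genes were called (5.16%; 3.96% of all genes higher and 1.2% lower), 73 of them by at least 2-fold (0.366%), and against J1 cells 342 genes (1.72%; 1.06% higher and 0.652% lower), 65 by at least 2-fold (0.326%). The direction of these calls rested on the scaling: with housekeeping centring 341 were higher and 1831 lower than in the full lines and 108 higher and 502 lower than in J1, and after cyclic loess 733 were higher and 433 lower than in the full lines, so no direction is read from them as a whole. Without converted replicate 2 or 3 the counts against the full lines were 351 and 376. Against J1 they were 155 and 136, and 133 without J1 replicate 3. Replicate numbers of converted and J1 arrays deviated together, and with the number as a block 543 genes differed from J1. Converted and full-line arrays numbered 1 and 2 also deviated together, and with the block 1572 genes differed from the full lines. Of the genes that marked the path from MEFs, Tcl1 was above both: it read 7.69, 8.13 and 8.22 in converted cells, 5.20, 5.39 and 5.40 in EOS3F-28, 5.16, 5.84 and 5.96 in EOS3F-29 and 6.94, 6.54 and 6.88 in J1 (2.52 ± 0.16 against the full lines and 1.22 ± 0.18 against J1). Peg10 was likewise above both (1.08 ± 0.22 and 1.27 ± 0.25). Esrrb, Dppa5a and Zfp42 were above the full lines (1.21 ± 0.15, 1.21 ± 0.25 and 1.06 ± 0.19), and their differences from J1 did not pass (0.10 ± 0.17, -0.30 ± 0.28 and 0.01 ± 0.22). Apoe, the lipid carrier, and Ooep, a maternal-effect gene, chosen after their values had been seen, rose from MEFs by 3.54 ± 0.23 and 4.27 ± 0.19 and exceeded the full lines by 1.21 ± 0.20 and 1.52 ± 0.16 and J1 by 1.10 ± 0.23 and 1.25 ± 0.19. The X-linked Hprt, a purine salvage enzyme, read 9.43, 9.77 and 9.84 against 8.43, 8.63 and 8.47 in J1 (1.17 ± 0.15). In the other direction Myc, Timp3 and Grb10 were below the full lines (-1.67 ± 0.35, -1.51 ± 0.29 and -1.10 ± 0.15), and Mir302b was lower than in them (-1.53 ± 0.37). Of the collagen, matrix glycoprotein and contractile lists, 0 genes were called against the full lines in the limma fit without a replicate block. At an unadjusted p under 0.05 there were 3, 1 and 4, and the median differences were -0.22, -0.29 and -0.31. How these list counts change with the block was not tested.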

How the data were processed

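Per the submitters' processing notes, the authors summarised Affymetrix Mouse Gene 1.0 ST arrays with RMA. The deposited log2 values (0.678 to 13.3) of 34760 probe sets on 18 arrays were used unchanged, and the RMA version is not given in the sources used here. RNA was purified on columns and labelled as whole-transcript sense target, per the labels' protocols. RMA quantile-normalizes the arrays to a common distribution, so a change shared by most genes is removed. Of the probe sets, 21640 carry 1 symbol in the platform annotation, 1321 several, and 11799 are unnamed here; for the 954 genes with more than 1, the brightest probe set by its mean on the 18 arrays was kept, giving 19937 genes. Other probe sets of Eed, Cbx3, Cycs, Hk1, Ppia, Rplp0, Slc38a1, Spred2 and Top2a differed with the opposite sign.

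All 18 arrays entered a single limma 3.58.1 fit (R 4.3.3; lmFit, eBayes) with 6 group means, so that the groups share an estimate of the spread, with Benjamini-Hochberg adjustment over all genes. The script was tested on simulated data. The rule for named genes took the 15 largest called rises and falls (2-fold, arrays not overlapping, no predicted or clone-named genes), the 4 largest called members in each direction of each of 36 lists (788 genes, 736 measured) and 22 genes whether called or not. Every other gene in the text, list members that did not pass included, was chosen after its values were seen. The comparison, its members and the lists were chosen with earlier results of these data known, and the promoter motifs after the expression values. Promoters and microRNAs were matched by symbol to RefSeq (GRCm38.p6). Same-numbered converted and MEF arrays did not deviate together (correlations -0.007, -0.020 and -0.061), so no replicate block was used there. With partial (0.383, 0.140 and 0.122) and J1 arrays (0.563, 0.454 and 0.150) they did. With the full lines the arrays numbered 1 and 2 did (0.520 and 0.432 for EOS3F-28, 0.579 and 0.484 for EOS3F-29). Those numbered 3 did not (-0.115 and -0.050). The main fit had no block for any comparison. The number of arrays, 3 a group, limits the precision.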

Additional observations from a re-analysis of the deposited data

Results flagged for a closer look

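The contrast with MEFs and its counterparts with the full lines and J1 cells share the converted arrays, and the genes below are those named genes whose direct difference from a fully pluripotent group was called and at least 2-fold. Against the full lines EOS3F-28 and EOS3F-29 together, converted cells were higher in Tcl1 (2.52), Hprt (1.30), Dppa5a (1.21), Esrrb (1.21), Syce2 (1.21), Lefty2 (1.09), Peg10 (1.08) and Zfp42 (1.06). They were lower in Eif2s3y (-2.25), Myc (-1.67), Timp3 (-1.51), Grb10 (-1.10), Dusp14 (-1.09) and Dab2 (-1.04). Against J1 cells they were higher in Peg10 (1.27), Tcl1 (1.22) and Hprt (1.17) and lower in Eif2s3y (-2.71) and Uty (-1.39).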

How the results depend on the processing

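Of 266 named genes, 250 were called, and 203 of those kept the call under every alternative run; of the other 47, 36 lost it under some alternative other than housekeeping centring. That centring turned Bbc3 to -0.0273, Sox7 to -0.00764, Pax6 to -0.0614 and Mir19b-2 to -0.0467, and gave 11236 calls against MEFs, 2172 against the full lines and 610 against J1. With the replicate block the counts were 7942, 1572 and 543; same-numbered converted and MEF arrays were not paired by their values. Of the steps given for single genes from the partial line and from J1, the block changed the calls of Cav1 and Cdh1 alone. List counts from partial to converted cells moved with it too. Germline rises went from 19 to 23, Hox falls from 18 to 20, collagen falls from 0 to 4 and contractile falls from 4 to 11. Over all 19937 genes, rises in that step went from 1866 to 2193 and falls from 2590 to 3033. Leaving out an array gave 6141 to 7114 calls against MEFs, 351 to 1166 against the full lines and 133 to 391 against J1, where leaving out J1 replicate 2 gave 223. Against EOS3F-29 alone 493 genes were called. Counts of calls in the lists stayed within 1.5 times in 902 settings and left that range in 106, of which 35 were housekeeping centring. The median of chromosome 12 was 0.181 with a floor of 5 on the mean level, -0.137 with housekeeping centring and 0.183 to 0.306 without an array. That of chromosome 8 was 0.234 and 0.533 with floors of 5 and 7, 0.301 after cyclic loess, -0.0438 with housekeeping centring and 0.290 to 0.364 without an array. That of chromosome X was 0.0944 with a floor of 5, 0.0393 after cyclic loess, -0.244 with housekeeping centring and 0.0869 to 0.196 without an array. The cause of these shifts was not tested.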
